A study of Mus musculus with 14 samples.

Results

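Cassette exons that were skipped in most spliced transcripts of the mouse spinal cord were examined. They were chosen by their inclusion in the 2 RNA-seq libraries of the whole spinal cord (WSC). An exon had to be 31 to 250 nt long, to be covered by 10 or more junction reads per library, and to have a mean inclusion below 10%. Inclusion is the mean read count of the 2 junctions that join the exon to its neighbours, divided by that mean plus the read count of the junction that skips the exon. Of the 13189 cassette exons counted in both libraries, 9396 had the junction reads, 8509 of these had the length, and 1603 of the latter (18.8%) were mostly skipped. They lay in 1339 genes. Of these genes 219 held more than 1 such exon, with a maximum of 4 in 2310065K24Rik. Because some exons were counted in several overlapping events, the 1603 events stood for 1597 distinct exons.

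The study set NOVA binding in motoneurons (MNs) against binding in the WSC, using cross-linking and immunoprecipitation (CLIP), which recovers the RNA fragments bound by a protein. The 8 MN CLIP libraries came from pooled spinal cords of 3-month-old C57BL/6 mice hemizygous for Chat:GFP-Nova, in which the promoter of choline acetyltransferase drives GFP-tagged NOVA2. There were 4 libraries of line #6 (Chat6) and 4 of line #17 (Chat17), each line kept from its own founder, and GFP was the antigen. The 4 WSC CLIP libraries came from wild type C57BL/6 mice of the same age and used a serum against NOVA itself. The WSC RNA-seq libraries were 1 from a male and 1 from a female 12-week-old Tg(SOD1)2Gur/J mouse (B6/SJL). By the study's methods these mice were transgenic for the wild type form of SOD1. No RNA-seq of MNs was analysed here, so every inclusion value is one of the whole tissue.

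Cassette exons lie inside the gene and can be kept or left out when the transcript is spliced. Where an exon brings a stop codon into the reading frame ahead of later exon junctions, the transcript that keeps it is commonly degraded by nonsense-mediated decay (NMD). Such exons are often called poison exons, and genes of splicing factors are known for holding them. NOVA1 and NOVA2 are neuronal RNA-binding proteins that bind clusters of the motif YCAY (Y is C or T), and for several of their targets binding ahead of an exon goes with its skipping.

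The exons shown first in sequence are those that the later sections return to. They are an exon of App that keeps the reading frame, exons of 3 splicing factor genes with a stop codon (Sfrs11, Rbm39 and Sf3b1), and the exon of Adam22 with NOVA tags beside it. Positions are in mm9 (NCBIM37) and count from 1, and sequences are of the transcribed strand, 5′ to 3′. The exons are App chr16:85043821-85043988 (minus strand), Sfrs11 chr3:157687087-157687195 (minus), Rbm39 chr2:156004616-156004688 (minus), Sf3b1 chr1:55071713-55071768 (minus) and Adam22 chr5:8091365-8091422 (minus). In the 3′ splice sites, 20 bases of the upstream intron are followed by 3 of the exon, and capitals mark the AG at the end of the intron. In the 5′ splice sites, 3 bases of the exon are followed by 6 of the downstream intron, and capitals mark the GT.
App 3′ splice site: tgtggttcccctctgattAGagg
App 5′ splice site: tgtGTaagt
Sfrs11 3′ splice site: tttgttgttgtgttttacAGttc
Sfrs11 5′ splice site: attGTatgt
Rbm39 3′ splice site: ccatctatctctctttgtAGact
Rbm39 5′ splice site: aagGTagta
Sf3b1 3′ splice site: gtaaagagataattttctAGgct
Sf3b1 5′ splice site: agtGTacgt
Adam22 3′ splice site: atataccctgcctttttcAGtct
Adam22 5′ splice site: cttGTaagt

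The stop codons of these exons were read in the frame of the upstream coding exon. Each stretch below lies within the exon, and the capitals mark the first stop codon in that frame. It starts at base 21 of the exon in Sfrs11, base 70 in Rbm39, base 18 in Sf3b1 and base 23 in Adam22. The App exon has no stop codon in its frame.
Sfrs11: cctggttcagccTGAactatataccag
Rbm39: aactgtcaatcaTAAg
Sf3b1: tattctgctgctTGAagtcagaactgc
Adam22: ataacattacccTGAcatgtggacctt

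The third set shows where NOVA tags piled up beside the exons, since tag position is a readout that the choice of exons did not use. Each stretch of 30 bases is centred on the highest tag coverage within 400 nt of the exon, and capitals mark every YCAY. The stretches are Adam22 chr5:8091530-8091559, 122 nt ahead of the exon, Ptprs chr17:56568705-56568734, 139 nt ahead, Clip1 chr5:124089166-124089195, 183 nt ahead, and Zfp384 chr6:124981604-124981633, 224 nt beyond the exon. Ptprs holds 3 YCAY in this stretch, and Adam22, Clip1 and Zfp384 have 2 each. Not all exons named below for their tags were like these. The stretches of Hnrnpa2b1, Sf3b1, Fxr1 and 5930434B04Rik hold 0 YCAY and those of Gria4 and 2010111I01Rik 1. Those of Phca, Scg5 and Dnajb2 hold 2, and those of Nol5 and Lrch3 hold 3.
Adam22: tgtCCATgtcTCACtccagtggtagttatt
Ptprs: CCATcTCACctttgattgacacCCACttct
Clip1: TCATctaatTCATaagaattaccgcctctg
Zfp384: caacaTCATtTCACccagcagagagctgag

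The inclusion of the 1603 exons was low even within the range that the rule allowed. Its median was 0.538%, with quartiles of 0% and 3.10%. In 908 exons it was below 1%, in 455 from 1% to below 5%, and in 240 from 5% to below 10%. The 2 libraries differed by a median of 0.414 percentage points, with a 95th percentile of 8.33 and a maximum of 18.9. Thus 1492 exons were below 10% in each library and 111 reached 10% in 1 library. These values chose the exons and are given as a description.

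Reads for these exons ranged from 20 to 12351 junction reads over both libraries, with a median of 117. In 464 exons (28.9%) both inclusion junctions were read, in 481 (30.01%) only 1 of the 2 was, and in 658 (41.0%) no read crossed either. The median junction reads were 197.5, 103 and 84 in these sets, so the exons without an inclusion read were also the less deeply read. For an exon without any inclusion junction read, a count of 0 allows a share of up to 3 reads of its total, which came to a median of 3.57% and ranged from 0.0497% to 15%. Among those 658 exons, 383 had a read inside the exon and 86 had at least 10. Intervals and limits cover counting error only, since the reads carry no molecular identifiers.

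**Figure D1:**
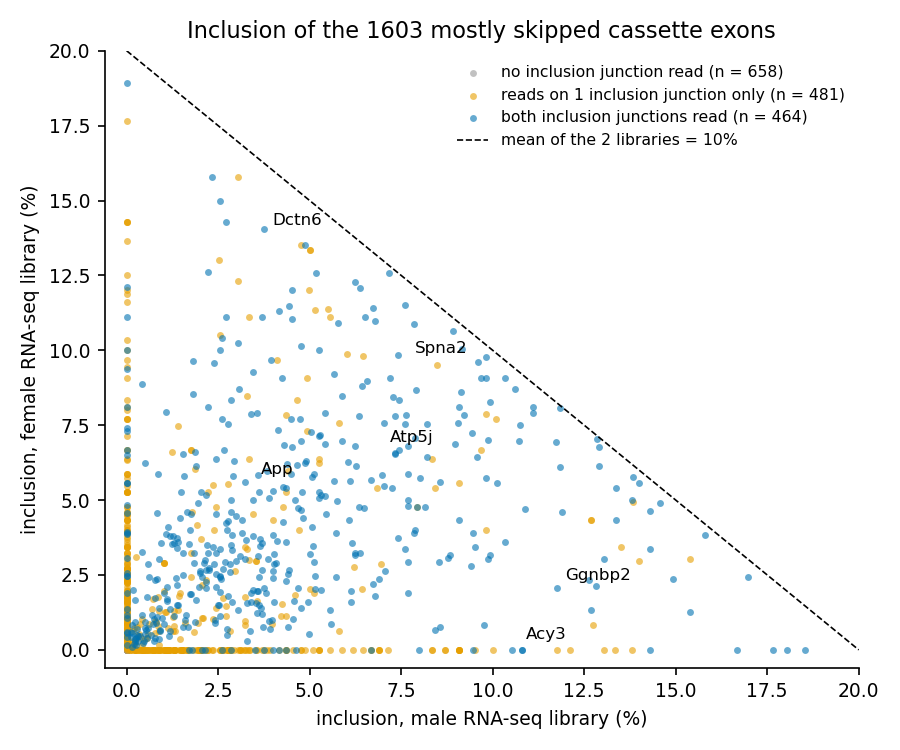
Inclusion (%) of each of the 1603 exons in the male (x axis) and the female (y axis) RNA-seq library, with 1 point per exon, coloured by whether none (658), 1 (481) or both (464) of its inclusion junctions were read. The points fill the triangle below the line where the mean of both libraries is 10%, and most lie close to the origin or on an axis.

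The exon with the most junction reads was in Pkm2 (now Pkm), a glycolytic enzyme, where a 117-nt exon in the 5′ UTR was joined by 1 of 12351 junction reads. In the male library this made 0.00794% (0.000829 to 0.0760%, 95% Wilson interval), against 0% in the female. In Nsf, an ATPase of vesicle fusion, none of 6037 junction reads joined a 48-nt exon, which allows a share of up to 0.0497%. In Psap, the precursor of the saposins, a 102-nt exon likewise had none of 4227. A 63-nt exon of Actb (β-actin), known to the annotation only from NMD or non-coding transcripts, was at 0% and 0.0399%. These exons were skipped in nearly every read of highly expressed genes.

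Other deeply read exons were included at a low but measurable level. The 178-nt exon of Sparcl1, an extracellular matrix protein of astrocytes, was at 1.37% in the male and 1.49% in the female library. The 105-nt exon of Plekhb1 was at 2.01% and 2.57%. The 55-nt exon of Atp5j, a subunit of mitochondrial ATP synthase, was at 7.64% and 7.85%, or 7.75 ± 0.148% (SD, n = 2). These intervals were narrow, at 6.61 to 8.82% and 6.77 to 9.10% for Atp5j. The 168-nt exon of App, which encodes the Kunitz protease inhibitor domain of the amyloid precursor protein, was at 4.00% (3.30 to 4.85%) and 5.30% (4.39 to 6.39%). Snrpn, a paternally expressed gene of a small nuclear ribonucleoprotein, held a 117-nt exon at 0.274% and 0.688%. The 153-nt exon of Aldoa, a glycolytic enzyme, was at 0.754% and 0.304%. Snrpn and Aldoa were called different between the libraries on junction reads (FDR = 0.000766 and 0.0711 by Fisher's exact test) but were not called with the reads inside the exon added (FDR = 0.147 and 0.236 by the same Fisher's exact test). Eif4a2 and Myl6 completed the 12 exons with the most reads, with means of 0.111% and 0.669%. In both, every inclusion read lay on the downstream junction, with 0 on the upstream one in either library. The downstream counts in the male and female library were 12 and 7 for Eif4a2 and 54 and 34 for Myl6. Joining of these 2 exons at both ends was therefore not seen.

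A stop codon in frame was common in these exons and uncommon in the other cassette exons. The frame could be read in 1222 of the exons, those preceded by a coding exon. A stop codon in that frame lay in 763 of them, or 62.4% (95% Wilson interval 59.7 to 65.1%). The share was 17.9% (16.2 to 19.8%) among 1801 exons of intermediate inclusion (10 to 90%) and 5.99% (5.30 to 6.76%) among 4075 included exons (above 90%). In the other 2 frames of the same exons the share was 72.4% in the mostly skipped, 71.7% in the intermediate and 79.3% in the included exons. Of the remaining exons, 363 followed a 5′ UTR exon, 9 lay in a 3′ UTR and 8 did not follow an annotated exon of a protein-coding transcript.

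Exons without a stop codon and with a length that is a multiple of 3 leave the frame open. There were 272 of these among the mostly skipped exons (22.3%), against 58.5% of intermediate and 39.4% of included exons. A further 187 had no stop codon but shifted the frame, 247 had a stop codon and a length in multiples of 3, and 516 (42.2%) had both a stop codon and a frame shift. Within the mostly skipped exons the share with a stop codon was 66.1% for inclusion below 1%, 64.6% from 1 to below 5% and 41.3% (33.9 to 49.0%) from 5 to below 10%. It was 65.6% where no inclusion junction was read, 65.3% where 1 was and 54.3% where both were. Exons with junction reads at or above the median had 62.6% and those below it 62.3%, close to equal at both depths.

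**Figure D2:**
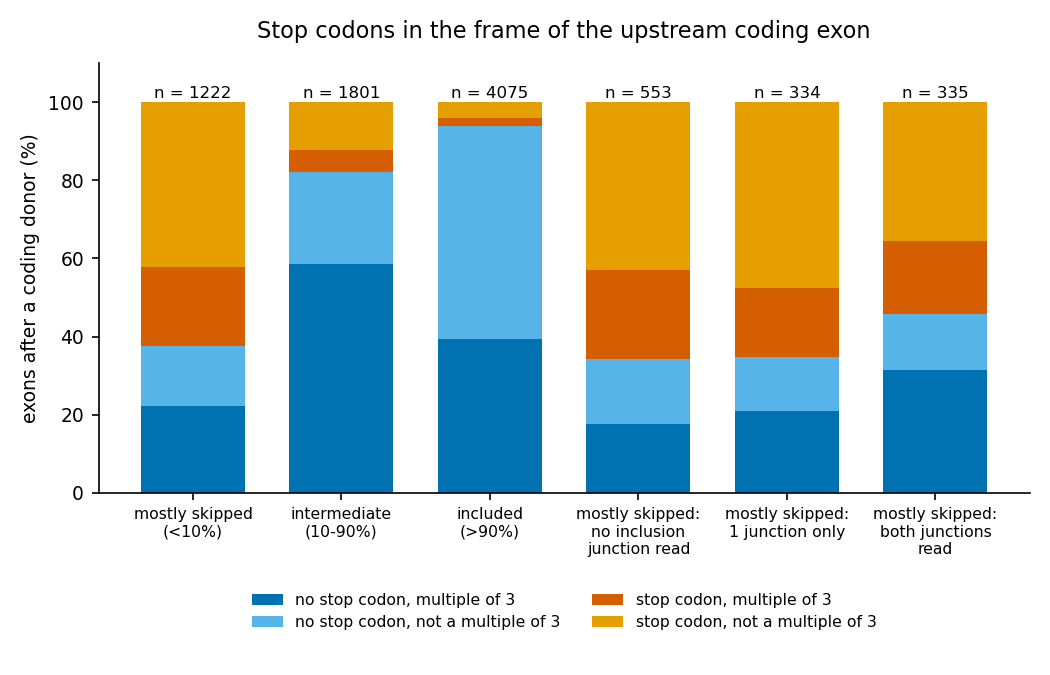
Share (%) of exons after a coding exon in 4 classes, by stop codon in frame and by length, for the mostly skipped (n = 1222), intermediate (n = 1801) and included (n = 4075) exons, and for the mostly skipped exons by junctions read. The share with a stop codon, the upper 2 segments, is 62.4% in the mostly skipped and 5.99% in the included exons.

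The annotation of the exons differed as well. Of the 1603 exons, 310 (19.3%) were coding exons of a protein-coding transcript, 201 were UTR exons, 242 occurred only in NMD or non-coding transcripts of such genes, and 215 only in other non-coding transcripts. In 545 exons (34.0%) neither end was annotated, against 7.27% of intermediate and 0.495% of included exons. Coding exons of a protein-coding transcript made up 69.3% of intermediate and 87.3% of included exons. Where a frame could be read, a stop codon lay in 84.9% (81.2 to 88.0%) of the exons known only from NMD or other non-coding transcripts, in 66.5% of those without an annotated end and in 19.6% (15.5 to 24.7%) of the annotated coding exons. The labels coding and NMD depend on the annotated reading frame, so this split was partly fixed in advance. Stop codons were not compared between the inclusion classes within the same annotation. The annotated coding exons were a multiple of 3 in length in 69.4% (64.0 to 74.2%) of cases, against 40.2% of all mostly skipped exons.

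Every placed exon was flanked by AG and GT, but splice signals had been used to place the exons, so this was largely fixed in advance. Splice sites were scored as log2 odds of the base frequencies in 160731 annotated internal coding exons against equal base frequencies. A higher score thus means a closer match to those exons. Annotated coding exons made up 87.3% of the included but 19.3% of the mostly skipped exons. The median 3′ splice site score was 8.08 in the mostly skipped, 8.44 in the intermediate and 9.03 in the included exons, and the median 5′ score was 7.01, 7.55 and 7.89. The quartiles overlapped widely, for instance 5.41 to 10.4 for the 3′ sites of mostly skipped and 6.75 to 11.3 for those of included exons. Exons with both inclusion junctions read scored 8.42 and 7.24, and those without any read 7.92 and 6.79. Among the exons shown above, Sfrs11 had a 3′ score of 11.5 beside a 5′ score of 4.61, and Sf3b1 scored only 0.17 and 3.59.

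Length, introns and motifs differed little. The median length was 97 nt, against 95 nt in intermediate and 109 nt in included exons. The median upstream intron measured 1640.5 nt and the downstream intron 1704.5 nt, against 1978 and 2200 nt beside intermediate exons and 1895.5 and 1754.5 nt beside included ones. GC content was 49.0% in the median exon, against 50% in each of the other classes. YCAY occurred 1.61 times per 100 nt in the 400 nt ahead of the mostly skipped exons, 1.66 times in the exons and 1.56 times in the 400 nt beyond them. The values were 1.64, 1.74 and 1.68 for intermediate and 1.60, 1.64 and 1.59 for included exons. The median level of the gene was 16.1 RPKM (reads scaled to exon length and library size), against 13.1 and 14.8.

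**Figure D3:**
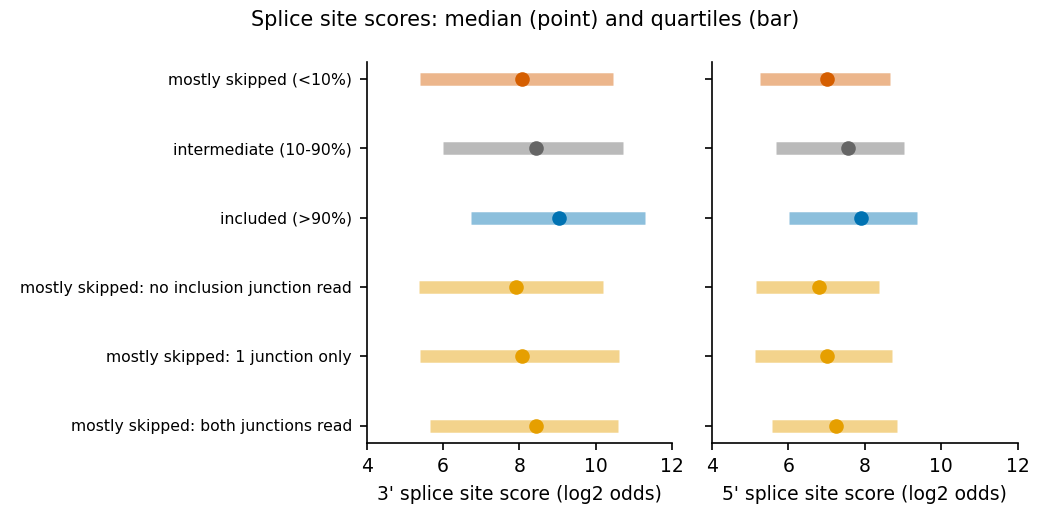
Score (log2 odds) of the 3′ (left) and 5′ (right) splice sites by class of exon, with the median as a point and the quartiles as a bar. Medians of the mostly skipped exons, 8.08 and 7.01, lie below those of the included exons, 9.03 and 7.89, and the bars overlap.

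Genes of the splicing machinery held several of the exons with a stop codon, as did other gene groups below. Over all mostly skipped exons after a coding exon the share was 62.4%. The counts by gene group are small and were not tested against it. Among the SR proteins, which bind exonic enhancers, 6 of 32 covered exons of 31 to 250 nt were mostly skipped, and 3 of the 4 after a coding exon had a stop codon. The 109-nt exon of Sfrs11 (now Srsf11) was at 5.29% (3.08 to 8.92%) in the male and 7.16% (4.42 to 11.4%) in the female library, almost all from 1 junction, with 113 and 91 reads inside the exon. The 104-nt exon of Sfrs2 (now Srsf2), which regulates its own mRNA through such events, was at 5.04% and 7.27%. In both genes the exon is annotated only from NMD or non-coding transcripts. The 38-nt exon of Srrm1 was at 1.37% and 3.39%, and the 65-nt exon of Sfrs10 (now Tra2b) had no inclusion read among 28, too few to exclude shares of up to 10.7%. The 47-nt exon of Luc7l2, in its 5′ UTR, was at 11.9% and 4.59%.

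Core spliceosome genes had the highest share among the gene groups looked at, with 15 of 48 covered exons (31.3%, against 18.8% of all exons of that length). Of the 12 after a coding exon, 9 had a stop codon (75%, against 62.4% of all mostly skipped exons after a coding exon). The 56-nt exon of Sf3b1, the largest subunit of the U2 snRNP complex SF3B, was at 4.11% and 3.65%. The 124-nt exon of Snrpb, which encodes the SmB and SmB′ proteins, was at 6.25% and 12.3%. Its counts were 0 and 18 inclusion reads on the 2 junctions in the male and 9 and 24 in the female library. U2af2 held a 64-nt exon at 0% and 0.685% whose first codon in frame is TGA. Prpf3 (96 nt) was at 4.40% and 2.52%, and Prpf4b (106 nt), without a stop codon, at 3.52% and 0%.

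The hnRNP genes gave 9 of 45 covered exons (20%), 6 of them outside a readable coding frame. The 70-nt exon of Hnrnpl and the 83-nt exon of Hnrpll, genes of closely related proteins, each carried 1 stop codon. Hnrnpl was at 4.59% and 5%, and Hnrpll at 2.86% and 4.60%. The intervals of all 4 values overlapped, from 1.05% to 11.2% at the widest. In the 5′ UTR, the 54-nt exon of Hnrnpk was at 2.56% and 3.37%, the 229-nt exon of Hnrnpc at 2.56% and 1.13% and the 162-nt exon of Pcbp4 at 2.15% and 2.99%. A 226-nt exon in the 3′ UTR of Hnrnpa2b1 was at 13.8% and 5.77%, with 645 and 551 reads inside the exon against 17 and 6 on its junctions.

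Among splicing regulators of neurons, 9 of 71 covered exons (12.7%) were mostly skipped, and all 6 after a coding exon had a stop codon. The 73-nt exon of Rbm39, a splicing factor related to U2AF, was at 4.37% (2.86 to 6.61%) and 5.41% (3.57 to 8.13%) on 899 junction reads. The 43-nt exon of Rbm9 (now Rbfox2) was at 4.76% and 6.98%. The 110-nt exon of Tia1 was at 1.85% and 2.91%. The 117-nt exon of Ptbp1, a repressor of neuronal exons, had no inclusion read among 182, which allows up to 1.65%. Outside coding frames, the 85-nt exon of Brunol4 (now Celf4) was at 4.52% and 6.77% and the 93-nt exon of Mbnl2 at 1.02% and 1.89%. Genes of translation and mRNA decay gave 5 of 58 covered exons, of which 2 had a stop codon. The 39-nt exon of Upf3b, an NMD factor, kept the frame and was at 6.72% and 2.20%. The 81-nt exon of Fxr1 kept it as well and was at 0.552% and 1.75%, and the 75-nt exon of Smg6, also an NMD factor, was at 5.56% and 1.33%.

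In synaptic, ion channel and cytoskeletal genes, most of the exons after a coding exon had no stop codon. Of 8 synaptic exons after a coding exon 3 had one, of 9 channel exons 3, and of 19 cytoskeletal exons 9. The synaptic group held 9 mostly skipped exons of 78 covered, the channel group 9 of 43 and the cytoskeletal group 23 of 115. The 63-nt exon of Spna2 (now Sptan1, αII-spectrin) kept the frame and was at 9.59% (7.68 to 11.9%) and 9.63% (7.56 to 12.2%). The 54-nt exon of Mapt, which encodes the axonal microtubule protein tau, kept the frame and was at 5.06% (3.33 to 7.61%) and 4.098% (2.50 to 6.65%). The 97-nt exon of Dlg1, a synaptic scaffold, shifted the frame and was at 5.41% and 5.13%. The 42-nt exon of Dlg2 was at 1.28% and 3.58%. The 80-nt exon in the 5′ UTR of Syt1, the calcium sensor of transmitter release, was at 3.61% and 1.49%.

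Of the channel genes, the 104-nt exon of Kcnc2 was at 7.20% and 9.09%, and the 84-nt exon of Scn2a1 (now Scn2a), with a stop codon, at 3.88% and 5.08%. The 110-nt exon of Trpm3 had no inclusion read among 157, and the 111-nt exon of Trpm7 had 1 among 167. In the glutamate receptor genes, the 39-nt exon of Gria4, with a stop codon and no annotated end, was at 12.8% and 2.13%, and the 41-nt exon of Gria2 at 0.465% and 0%. The Gria4 values rest on 92 junction reads, and their intervals overlap. Kif1a, Dync1i1 and Add1, genes of axonal transport and the membrane skeleton, held 5′ UTR exons with means of 0.210%, 0.252% and 1.93%, and the 51-nt exon of Clasp2 had no inclusion read among 1243.

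In genes of chromatin and transcription, 10 of 80 covered exons were mostly skipped, and 8 of 9 after a coding exon had a stop codon. None of the 10 had reads on both inclusion junctions. Mef2a (147 nt), Bptf (245 nt), Atrx (86 nt) and Setd2 (217 nt) had no inclusion junction read, with limits of 2.13%, 2.34%, 2.50% and 4.55%. Hdac5 (84 nt) was at 0% and 8% on 4 reads of 1 junction. Nucleotide and ubiquitin enzymes gave 12 of 69, with a stop codon in 7 of 11. The 50-nt exon of Ube2d3 had 1 inclusion read among 1159, and the 54-nt exon of Cul1 none among 354. The 134-nt exon of Ubr3 was at 5.15% and 2.47%, and the 106-nt exon of Ube2g1 at 2.56% and 1.92%. Of the motoneuron disease genes, 5 of 27 exons were mostly skipped. A 113-nt exon of Smn1 with a stop codon had no inclusion read among 74, and the 56-nt exon of Chmp2b was at 0.775% and 0.952%.

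Some exons were read inside but hardly at their junctions. The 115-nt exon of Nubp1 had 431 reads within the exon over both libraries and no inclusion junction read, against 84 skipping reads. The 81-nt exon of Mat2a, which encodes methionine adenosyltransferase, had 194 within and none on its inclusion junctions, against 484 skipping reads. Ogt (146 nt) had 278 within and 4 on a junction, and Commd1 (96 nt) 848 within and 4. By junction reads, Commd1 was at 1.46% and 0.353%, whereas the share of inclusion reads with those inside the exon was 82.2% and 73.2%. The order therefore depends on which reads are counted, and whether reads within these exons came from unspliced RNA was not tested. At the other end, Tcf25 (85 nt) had 2456 junction reads, none of inclusion and 2 inside the exon, and Reep5 (98 nt) had 2417, none of inclusion and none inside.

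Near the threshold the exons just inside were Psma4 (85 nt), at 11.8% and 8.09%, Rsrc2 (93 nt), at 12.8% and 7.04%, and Ppp1r9a (66 nt), at 7.18% and 12.6%. Just outside were Anks3 (70 nt), at 0% and 20%, Golm1 (136 nt), at 12.3% and 7.69%, and a 113-nt exon of Dctn6, at 4.80% and 15.3%. Each of these 6 exons lay on opposite sides of 10% in the 2 libraries.

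The male and the female library were compared exon by exon with Fisher's exact test (two-sided) on inclusion reads, those inside the exon and on both inclusion junctions, against skipping reads. With 1 library each, the test compares these libraries and not the sexes. The exons were chosen by their mean inclusion over the same junction reads, so the counts of mostly skipped exons called are a description and support nothing. At an FDR of at most 0.1 over all 9396 covered exons, 400 were called (4.26%). Among the 1603 mostly skipped exons, 78 were called, in 74 genes. Of these, 38 were higher in the male and 40 in the female library, and the share of 4.87% lay near that over all exons. Of the 78 exons, 11 had no inclusion junction read at all. With junction reads only, 310 of 9396 were called (3.3%), and of the mostly skipped exons 37, with 20 higher in the male and 17 in the female library. Of these, 21 exons were called in both ways.

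The lowest p among the mostly skipped exons was that of a 116-nt exon of Dctn6, a dynactin subunit. It had 29 inclusion and 347 skipping reads in the male and 91 and 251 in the female library (7.71% and 26.6% of these reads, FDR = 1.01e-08 by Fisher's exact test). A 54-nt exon of Dctn6 that shares its downstream end had 9.87% and 27.7%. Nearly all of the difference came from the junction that these exons and the 113-nt exon outside the threshold share, with 18 reads in the male and 75 in the female library, so the 3 events are not independent. Josd2 (58 nt) was likewise lower in the male library, at 9.52% against 26.0%. The reverse was seen in Ggnbp2 (126 nt), with 36.2% in the male and 15.7% in the female library.

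Further exons higher in the male library were those of Acy3 (124 nt), with 33 inclusion reads against 0, and 2 exons in the 5′ UTR of Mcfd2, with 15.04% against 0% (225 nt) and 23.2% against 4.41% (132 nt). The same skipping junction counts for both Mcfd2 exons. D4Wsu53e (now Rsrp1, 45 nt) had 61.3% and 79.8%, nearly all from reads inside the exon, and the call was lost with junction reads only, as was that of the 225-nt exon of Mcfd2. Pop4 (118 nt), a subunit of RNase P, had 12 reads inside the exon in the female library and none in the male, and no inclusion junction read in either.

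NOVA tags were then counted in windows of each exon and up to 400 nt of the introns beside it. The MN libraries held 65961 to 871804 unique tags and the WSC libraries 2213104 to 6095995. Of 1595 windows of mostly skipped exons, 1242 held a tag, 426 had none in WSC, 921 had none in MNs and 312 had at least 10 tags over the 12 libraries. The median window had 2 WSC tags and 0 MN tags, against 5 WSC tags for intermediate and 3 for included exons. In all, 13744 WSC and 2538 MN tags fell in the windows, and 8 windows held 21.8% of the WSC tags. The windows took 0.0787 ± 0.0026% of the tags of a WSC library, 0.119 ± 0.013% of a Chat6 library and 0.115 ± 0.020% of a Chat17 library (SD, n = 4 each), and neither MN range overlapped the WSC range. The same held for intermediate exons, at 0.280 to 0.354% in Chat6, 0.305 to 0.365% in Chat17 and 0.243 to 0.251% in WSC. For included exons the Chat6 range (0.186 to 0.358%) spanned that of WSC (0.303 to 0.337%), and Chat17 (0.290 to 0.293%) lay below WSC.

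The tags lay mostly in the introns. In WSC, 51.3 ± 0.87% were in the upstream intron, 12.7 ± 0.64% in the exon and 36.0 ± 1.3% in the downstream intron (SD, n = 4). In Chat6 the shares were 49.1 ± 6.4%, 11.2 ± 3.0% and 39.7 ± 5.1%, and in Chat17 51.6 ± 4.6%, 9.67 ± 1.5% and 38.7 ± 3.3%. For intermediate exons the WSC shares were 33.5%, 30.2% and 36.4%, and for included exons 17.0%, 57.0% and 26.0%. The classes lay closer together in MNs. Intermediate exons had 42.9%, 14.3% and 42.8% in Chat6 and 39.3%, 16.1% and 44.6% in Chat17. Included exons had 31.6%, 28.7% and 39.7% in Chat6 and 28.4%, 32.3% and 39.3% in Chat17. The study also reports a more intronic and less exonic spread of all MN reads than of WSC reads. Adam22 alone gave 1060 of the upstream WSC tags. Without it the WSC shares were 47.8%, 13.6% and 38.6%, and with every exon weighted equally 44.1%, 15.3% and 40.6%. Counted instead as introns with a WSC tag in a 20-nt bin, the upstream maximum was 9.66% for the mostly skipped, 12.8% for the intermediate and 7.07% for the included exons.

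**Figure D4:**
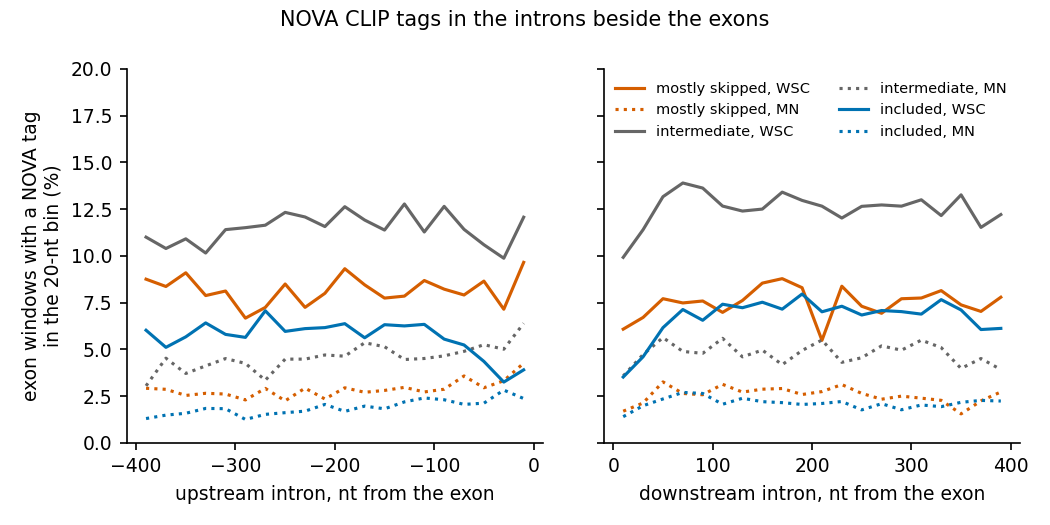
Share (%) of exon windows with a NOVA tag in each 20-nt bin of the upstream (left) and downstream (right) intron, against the distance from the exon (nt), for WSC (solid) and MN (dotted) CLIP and 3 classes of exon. The mostly skipped exons peak at 9.66% upstream and 8.78% downstream in WSC, below the intermediate exons (12.8% and 13.9%).

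The MN and WSC tags were compared with edgeR's quasi-likelihood test at an FDR of at most 0.1. The filter of edgeR left 37 windows of all cassette exons, of which 31 were called (83.8%). Only 2 of the 37 belonged to mostly skipped exons, Adam22 among them, and both were called. A wider set of windows with at least 10 tags, chosen after the data were seen, gave 2919 windows with 460 calls (15.8%), 7.19% higher and 8.56% lower in MNs. Of the 312 windows of mostly skipped exons in it, 37 were called (11.9%), 30 higher and 7 lower. The MN libraries were much shallower, and the study warns that unequal complexity may give unequal power for the 2 directions. Windows called lower had 47 to 1257 WSC tags, whereas Tial1 was called higher on 6 MN and 7 WSC tags. How far this set the split of 30 and 7 was not tested. The median log2 change over the 312 windows was 0.24, against −0.72 over all windows. Intermediate exons had a median of −0.18, with 91 called higher and 43 lower, so more higher than lower calls were seen there too. Included exons had −1.21, with 45 higher and 126 lower. The split of the mostly skipped exons depended on the scaling. With DESeq2 and size factors from the windows, the median over all windows was −1.29 and 1 exon was called higher and 50 lower, whereas with DESeq2 and size factors from genes the median was 0.77 and 25 were higher and 1 lower.

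Tags on a pre-mRNA follow its abundance, and in bulk tissue fewer cells of a type and less RNA per cell cannot be told apart. The transgene, the antibody and the depth differed between MN and WSC libraries in the same way as the cell type, and their parts cannot be told apart. With the tags on the rest of the gene as an offset, 24 of the 37 calls held, and 7 held when each library was left out in turn. The 37 calls fell to 11 without Chat17 replicate 4 and to 18 without Chat6 replicate 3, the deepest libraries of their lines. Of the 30 higher windows, 11 had fewer than 10 MN tags. The 7 lower windows all had at least 10 WSC tags, and apart from Adam22 each had 8 MN tags or fewer. As a check of the labels, the tags on 6 motoneuron marker genes were summed, without Slc18a3, which was not matched. Given in CPM, tags counted relative to all tags of the libraries, they took 1697 in MNs and 342 in WSC, with 348 and 46.6 for Chat, while the 4 markers of inhibitory interneurons took 146 and 2082. Oligodendrocyte (834 and 1089) and astrocyte markers (808 and 1884) also had MN tags. The markers of Schwann cells and nerve roots (124 and 39.8) and of endothelial cells (21.2 and 9.91) were higher in MNs than in WSC, and those of microglia lower (11.9 and 24.0). Skeletal muscle markers summed to at most 0.916 RPKM in the RNA-seq libraries, and the motoneuron transcription factor Isl1 was at 0.647 RPKM in the lower library. The part of these cell types in the tag differences was not tested.

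Adam22, a neuronal receptor of LGI proteins, had the fullest window. Its 58-nt exon is known only from NMD or non-coding transcripts, has 2 stop codons in frame and was at 6.12% and 1.59% inclusion on 90 junction reads. The window held 9.88, 32.0, 14.5 and 35.2 CPM in the Chat6 libraries, 0, 31.3, 21.96 and 25.2 in the Chat17 libraries and 71.9, 81.2, 62.8 and 73.7 in the WSC libraries. Each MN library was thus below each WSC library. The log2 change was −1.72 ± 0.24 (SE, FDR = 6.30e-11, edgeR), and the FDR was at most 7.49e-07 whichever library was left out. Of 1257 WSC tags 1060 lay in the upstream intron, as did 36 of 47 MN tags, around the stretch with 2 YCAY shown above. The change was −1.32 with the rest of the gene as an offset.

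Ptprs, a neuronal receptor tyrosine phosphatase, had a 59-nt exon at 6.45% and 9.82% inclusion and was higher in MNs. Its CPM were 39.5, 32.0, 14.5 and 0 in Chat6, 30.3, 62.5, 10.98 and 9.18 in Chat17 and 3.83, 3.44, 3.89 and 6.78 in WSC, so that 7 of 8 MN libraries were above WSC. The log2 change was 1.98 ± 0.39 (SE, FDR = 1.85e-05, edgeR), with 65 of 71 WSC and 32 of 34 MN tags in the upstream intron. Fryl held a 45-nt coding exon without an inclusion read among 41. Its window had 9.68 to 19.8 CPM in Chat6, 0 to 21.96 in Chat17 and 1.64 to 4.07 in WSC, with a log2 change of 2.31 ± 0.44 (SE, FDR = 9.94e-06, edgeR). For Ptprs and Fryl the change was smaller under DESeq2 with window factors, at 0.21 and 0.56, and no longer called.

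The Sf3b1 exon gave the lowest FDR from few tags. The 23 MN tags fell in 4 of 8 libraries, at 16.9 and 8.81 CPM in Chat6 and 21.96 and 13.8 in Chat17, with 0 in the others, and the 6 WSC tags made 0 to 0.904 CPM. The log2 change was 4.66 ± 0.56 (SE, FDR = 6.92e-14, edgeR), and the FDR stayed at or below 0.00207 with any library left out. The highest coverage, at the 3′ splice site of the exon, held no YCAY. Uvrag and Kctd17, named after their values were seen, were also among the 7 exons that held with every library left out (log2 changes of 2.55 and 1.04). With the rest of the gene as an offset, Uvrag was at 1.84 (FDR = 0.0767, edgeR), and Kctd17 was at 0.40 and no longer called (FDR = 0.456, edgeR).

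In Hnrnpa2b1 the call needed both of 2 libraries, Chat17 replicate 4 with 21 and Chat6 replicate 3 with 13 of the 35 MN tags. The log2 change was 2.03 (FDR = 9.94e-06, edgeR). It was −1.79 without Chat6 replicate 3 (FDR = 0.646, edgeR) and 0.83 without Chat17 replicate 4 (FDR = 0.641, edgeR). In 2010111I01Rik (now Aopep), with a log2 change of 3.18, 12 of 16 tags lay in Mir27b, a microRNA gene within the intron. Among the called exons there were 4 with an annotated small RNA in the window.

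Of the exons lower in MNs, that of Phca (now Acer3, 164 nt) had 47 WSC and 0 MN tags. Against the 3 tags that a count of 0 allows over all MN libraries, this is at least 1.83-fold lower. The log2 changes were −1.56 for 5930434B04Rik (now Cacfd1, 74 nt), −1.71 for Scg5 (88 nt), −1.72 for Fxr1 and −3.30 for Nol5 (now Nop58, 177 nt). None of these calls was kept with every library left out, and their MN tags numbered only 8, 5, 6 and 2. The window of Nol5, shared by 2 of the counted events, held 57 tags in SNORD70, a small nucleolar RNA gene, against 59 tags in all.

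Other windows with many tags were not called. Clip1 encodes a microtubule plus-end protein, and its 33-nt exon kept the frame at 9.80% and 9.77% inclusion. Its window had 10.7 to 49.4 CPM in Chat6, 21.96 to 56.3 in Chat17 and 16.5 to 29.0 in WSC, with overlapping groups and 403 of 408 WSC tags upstream (log2 change 0.19 ± 0.27 SE). In the window of Gria4, 329 of 334 WSC tags lay beyond the exon, and values were 12.1 to 49.4 CPM in Chat6, 0 to 13.8 in Chat17 and 16.9 to 22.7 in WSC (−0.29 ± 0.31). Zfp384 (124 nt) likewise had 176 of 182 WSC tags beyond its exon (−1.02 ± 0.46, FDR = 0.139, edgeR). Lrch3 (108 nt) and Dnajb2 (156 nt) had log2 changes of 0.33 ± 0.37 and −0.18 ± 0.42.

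**Figure D5:**
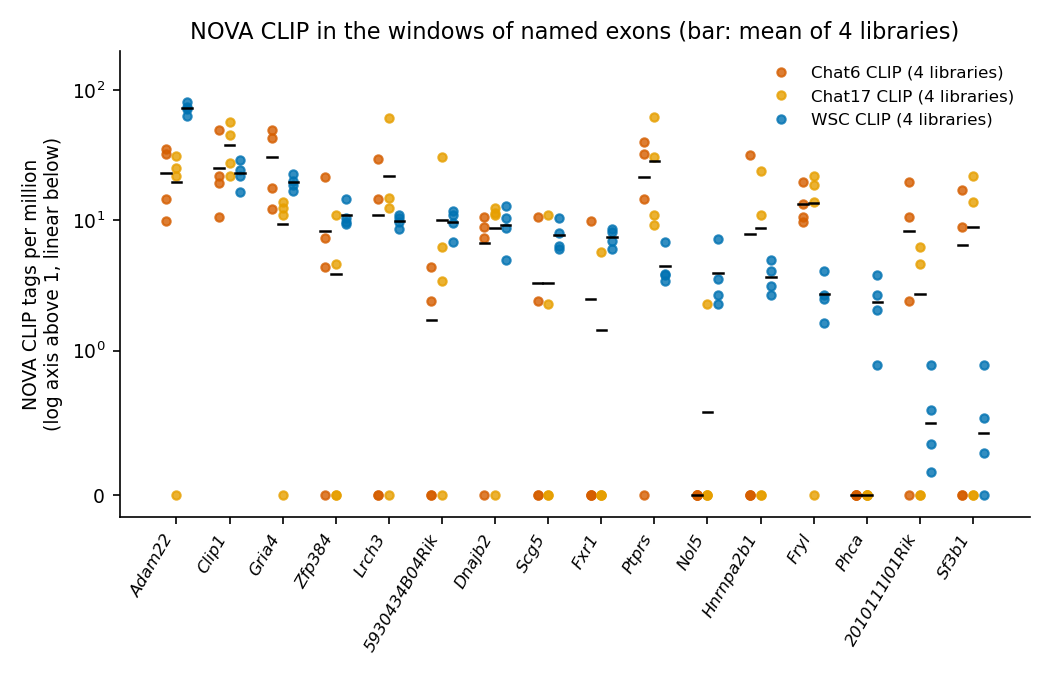
NOVA CPM in the windows of 16 named exons, with 1 point per library (4 Chat6, 4 Chat17 and 4 WSC) and the mean as a bar, on a log axis above 1 that is linear below. The 4 WSC libraries lie above all MN libraries in Adam22 (62.8 to 81.2 CPM), and those of Ptprs (3.44 to 6.78 CPM) lie below 7 of 8 MN libraries.

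Chat6 and Chat17, the 2 lines behind the MN libraries, were compared in the same fit. Of the 2919 windows 0 were called (0%) by edgeR, with 8 windows of mostly skipped exons at an unadjusted p under 0.05 among 312. DESeq2 called 0 as well, with 2 or 3 at that level depending on the size factors. The log2 difference, Chat6 minus Chat17, was −0.13 ± 0.48 (SE) for Adam22. With few tags in the MN libraries, smaller differences between the lines were not detectable at this depth.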

How the data were processed

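The members, the gene lists and the tests were chosen with earlier results of these data known. For the WSC RNA-seq, the authors trimmed paired-end reads to 74 nt, mapped them to mm9 with OLego, kept unambiguous reads and deposited read counts on genes and exons (Quantas) with gene RPKM. There were 72006019 and 65625173 reads on genes, and 253751 and 226893 junction reads over the mostly skipped exons. For CLIP, the deposited lines are unique tags mapped with Novoalign (version not given in the sources used here) and collapsed by position and barcode; the score in each deposited line is not explained by the authors and was not used; each line was taken as a count of 1 by the position of its middle. The labels of Chat6 replicate 2 name mm10 beside mm9.

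Inclusion, Wilson intervals (95%) and Fisher's exact tests with Benjamini-Hochberg adjustment were computed in Python 3.11.15 (scipy 1.17.1). Windows of each distinct exon with up to 400 nt of intron on the same strand were tested with edgeR 4.0.16 (R 4.3.3) over all 12 CLIP libraries, with TMM factors from 1003 genes with at least 10 tags in every library and filterByExpr; DESeq2 1.42.0 was the alternative. Since filterByExpr left 37 windows, windows with at least 10 tags were added. Exons were placed on NCBIM37 by splice signals and its GENCODE annotation, and 1602 of 1603 matched. The frame was the commonest phase of the annotated upstream exon, and a stop codon across the downstream junction was not counted. Exons on chromosome 18 are given without sequence, and a few exons that the rule names are not reported here. By the study's methods the CLIP replicates are biological, those of MNs from separate pools of spinal cords; p-values measure the spread between these libraries.

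Tested on simulated data with 200 changed features, the edgeR fit recovered 59 of 200 windows changed 4-fold among 2919, with 7.81% of calls false, and Fisher's exact test recovered 64 of 200 among 9396 exons, with 3.03% false. The simulated tags had the same spread in every window, and the simulated RNA-seq reads had no spread between libraries beyond counting. The false shares hold for those settings and not for these data. Named exons were the 12 with the most junction reads, up to 6 per gene list, up to 10 called between the RNA-seq libraries, up to 6 per direction called in CLIP by p, the 8 with the most WSC tags, those nearest the threshold (3 on each side), and 4 each without inclusion junction reads and with most reads inside the exon per junction read. Alternatives covered scaling, filters, window size, distinct tag positions, an offset for the rest of the gene, the replicate block, junction reads only and leaving out each library.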

Additional observations from a re-analysis of the deposited data

Results flagged for a closer look

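In groups of 4 CLIP libraries, 8 values lay far from the other 3 by Dixon's 95% criterion, among 57 groups tested, of which chance flags about 1 in 20. In Chat6 replicate 2, 32.1% of the tags in windows of mostly skipped exons lay in the downstream intron, against 42.0 to 42.5% in the other Chat6 libraries. In WSC replicate 4, 13.7% lay in the exon, against 12.3 to 12.5%.

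Most of the other values came from exons with very few MN tags. For Hnrnpa2b1, Chat6 replicate 3 had 31.5 CPM and the other 3 libraries had 0. For Fxr1, Chat6 replicate 1 had 9.88 and Chat17 replicate 4 had 5.74 CPM, with 0 in the others of each line. These were 1 and 5 tags. For Nol5, Chat17 replicate 4 had 2.29 CPM and the others 0. For Dnajb2, Chat17 replicate 1 had 0 CPM against 10.98 to 12.5. For Ptprs, WSC replicate 4 had 6.78 CPM against 3.44 to 3.89. The causes were not tested.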

How the results depend on the processing

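Counts of calls depended on the reads and windows counted. Between the RNA-seq libraries, junction reads only gave 37 of the mostly skipped exons in place of 78. For MN against WSC CLIP, windows without a filter on low counts gave 28 calls in place of 2. Leaving out each library gave 2 to 4 calls after filterByExpr and 11 to 45 with at least 10 tags, the lowest without Chat17 replicate 4 (11) and 18 without Chat6 replicate 3. Chat6 against Chat17 stayed at 0 in each of these runs. Hnrnpa2b1 was reversed to −1.79 without Chat6 replicate 3, the lowest of a range that reached 2.26 with each library left out. In that run fewer samples were left.

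Over all alternatives for single named exons, 194 values kept their direction and their side of the threshold, 40 lost the call without turning round, of which Pop4 with junction reads only was at 0, and 1 was reversed. The low number of MN tags limits what can be called.

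Tag position depended on the width and on the weights. With 200 nt on each side, WSC had 49.3% upstream, 21.1% in the exon and 29.7% downstream, Chat6 had 18.1% in the exon, and Chat17 had 15.9% in the exon and 29.3% downstream, since less intron was counted. With every exon weighted equally, WSC had 44.1%, 15.3% and 40.6%, and Chat17 11.5% in the exon. Without Adam22, WSC had 47.8%, 13.6% and 38.6%. With each library left out, Chat6 had 46.2 to 50.9% upstream, 10.1 to 12.4% in the exon and 38.8 to 42.3% downstream, Chat17 had 49.9 to 53.6%, 9.09 to 10.3% and 37.3 to 39.8%, and WSC had 51.1 to 51.6%, 12.4 to 12.8% and 35.6 to 36.5%. With the RNA-seq libraries taken 1 at a time, 1686 to 1733 exons passed the rule, and 62.4% of them had a stop codon in frame either way.

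With the replicate number as a block, 2 windows of mostly skipped exons were called after filterByExpr, as without it, and 25 in place of 37 with at least 10 tags. The libraries share only a number: same-numbered Chat6 and Chat17 libraries correlated at 0.12, 0.11, 0.0003 and 0.090, and Chat6 replicate 3 correlated best with another number. Among the exons named for their CLIP calls, the block ended those of Fxr1, 5930434B04Rik and Scg5.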
